A study of Alligator mississippiensis with 4 samples.

Results

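The genes described here are the members of the BMP and TGF-beta signalling pathways that had a row in an RNA-seq table of developing alligator scale dermis. They were taken by symbol, from the ligand, receptor, SMAD, antagonist and ID gene families, with BMP1 and the LTBP genes left out, and 34 of the 10466 rows of the table met this rule. The dermis came from untreated American alligator (Alligator mississippiensis) embryos, from the overlapping scales of dorsal and of ventral skin, after the epidermis had been detached. There was 1 library each of dorsal dermis at Es22, ventral dermis at Es22, dorsal dermis at Es19 and ventral dermis at Es19, where Es19 is the placode stage and Es22 the later bud stage of scale growth. The values are CPM, reads counted relative to the size of their library, with TMM normalization, which adjusts each library size for RNA composition. The paper's methods speak of replicates, while the table analysed here holds 1 column for each region and stage, so no difference below has a replicate within its own region and stage, and no source used here gives the number of embryos behind a library.

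BMPs, activins and TGF-betas are secreted dimers that bind pairs of type II and type I serine/threonine kinase receptors on the cell surface. The activated receptors phosphorylate receptor SMADs, SMAD2 and SMAD3 for TGF-beta and activin, and SMAD1, SMAD5 and SMAD9 for BMPs, which enter the nucleus with SMAD4. Secreted antagonists such as noggin and follistatin hold the ligands away from their receptors, and ID genes are among the direct targets of BMP signalling. In bird skin BMPs limit where feather placodes form, and BMP2 is made in the placodes of feathers and scales.

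The table held from 10722075 to 13220855 reads a library, recovered as whole multiples of the value of 1 read, and the members had from 7 to 6017 reads each. All 34 members had a mean of at least 1 CPM, the level set for the comparisons, as did 10236 of the 10466 rows. Of the 70 symbols in the RefSeq annotation of rAllMis1 that meet the rule, 30 had a row, and 4 members (ACVR1L, BMP8A, GDF3 and SMAD4.1) carry symbols that this annotation does not use. There was no row under the symbols BMP4, BMPR1A, BMPR2, TGFB1, TGFBR1, SMAD1, SMAD5, SMAD7 or CHRD in the table analysed here. Much of the BMP branch between ligand and ID gene thus has no value here under these symbols. CPM is not corrected for transcript length, so levels are compared between libraries and not between genes.

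The libraries differed in their markers of other cell types. For each list below, a gene counts as having a row only at a mean of at least 1 CPM. Of 25 listed epidermal markers 9 had a row, and they summed to 1042 CPM dorsally and 258 CPM ventrally at Es22, against 42.3 CPM dorsally and 52.5 CPM ventrally at Es19. The 10 of 18 skeletal muscle markers with a row summed to 499 and 1681 CPM at Es22, against 210.2 and 268 CPM at Es19, dorsal before ventral. For the 14 of 18 endothelial markers with a row the sums were 861 and 639.6 CPM at Es22, against 355 and 358 CPM at Es19. The near-equal Es19 sums hide unlike genes, since 3 of the 14 were higher and 11 lower in dorsal dermis (median log2 difference -0.52). Among the 3 were TEK, at 62.0 CPM dorsally and 22.3 CPM ventrally, and SOX18, at 111 and 33.1 CPM. The 8 of 14 red blood cell markers with a row summed to 8598 and 10429 CPM at Es22, against 571 and 1900 CPM at Es19. The dermal fibroblast list had type I collagen and lumican among its 8 of 10 genes with a row. It summed to 435141 and 348357 CPM at Es22, against 186098 and 88474 CPM at Es19, most of it type I collagen. In each region 6 of the 8 were higher at Es22 and 2 lower. PRRX1 was lower in both regions, TWIST1 was lower in dorsal dermis (194 against 371 CPM), and PDGFRA stayed between 2.1 and 3.84 CPM. None of the marker rows counted was at 0 in any library, and rows with a mean under 1 CPM were left out of this count. Of the basal epidermal markers, KRT5 and TP63 had no row counted, while KRT14 and KRT15 had one. In such bulk samples fewer cells of a type and less RNA per cell cannot be told apart.

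**Figure D1:**
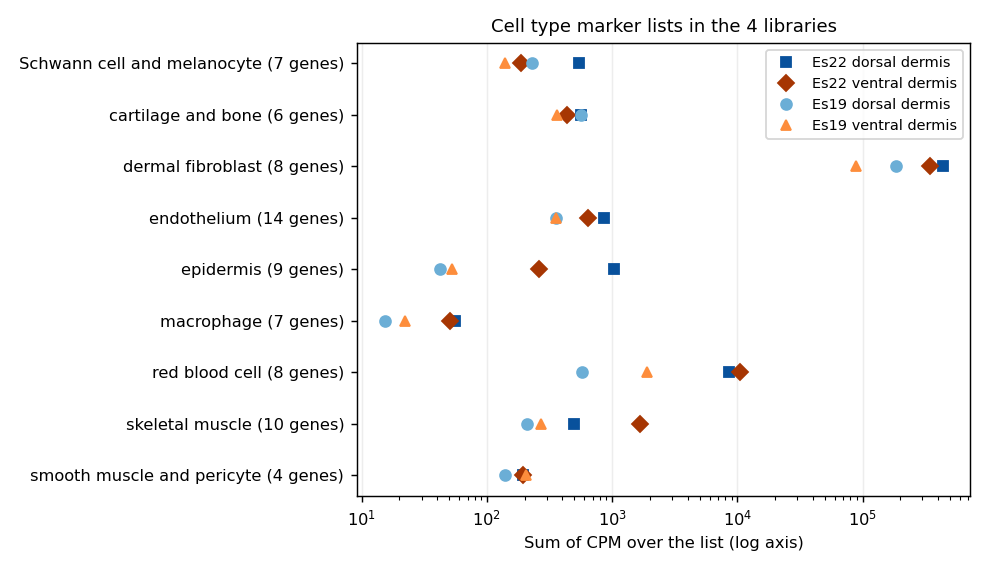
Summed CPM (log axis) of 9 lists of cell type markers in each library, with 1 symbol for each library and the number of genes with a row beside each list. The epidermal sum was highest in Es22 dorsal dermis (1042 CPM) and the skeletal muscle sum in Es22 ventral dermis (1681 CPM). The fibroblast sum, most of it type I collagen, was lowest in Es19 ventral dermis (88474 CPM).

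Between stages 6 of the 34 members moved alike in both regions. The ligand GDF10, the type II receptor TGFBR2 and the antagonist FST were higher at Es22, and the ligands BMP2 and BMP7 and the co-receptor RGMA were lower. Each was at least 2-fold apart, on the log2(CPM + 1) scale, in dorsal and again in ventral dermis, which 3.26% of the 10236 rows were in the upward and 0.537% in the downward direction. The same 6 passed an adjusted p of 0.05 in limma, where 2.66% of rows passed upward and 0.469% downward. The limma fit had region and stage as terms and 1 residual degree of freedom, so the departure of one region from the other stood in for replicate error. With all 4 libraries but without the region term limma called 0 members and 0 of all rows, with 9 members at an unadjusted p under 0.05. Fits with a library left out had stage as their one term, so what the library and the dropped term each did cannot be told apart. They called 0 members and 0 of all rows without Es22 dorsal dermis (7 members at an unadjusted p under 0.05) and without Es22 ventral dermis (9 members). Without Es19 dorsal dermis 2 members, GDF10 and SOSTDC1, were among 25 rows called, and without Es19 ventral dermis 2, GDF10 and TGFBR2, were among 75. In these fits the log2 differences ran from -1.41 to -1.14 for BMP2, -2.39 to -1.74 for BMP7 and -1.37 to -0.90 for RGMA. They ran from 1.62 to 3.30 for GDF10, 1.27 to 1.77 for TGFBR2 and 1.71 to 2.21 for FST. No sign could change there, since for each of the 6 both Es22 libraries lay on one side of both Es19 libraries. DESeq2 on the recovered reads called the same 6 members, beside 4.06% of rows higher and 0.742% lower, and edgeR called these and ID2, beside 4.48% and 1.04%. At an unadjusted p under 0.05 there were 11 members in limma (20.6% of all rows), 11 in edgeR (21.2%) and 9 in DESeq2 (12%).

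**Figure D2:**
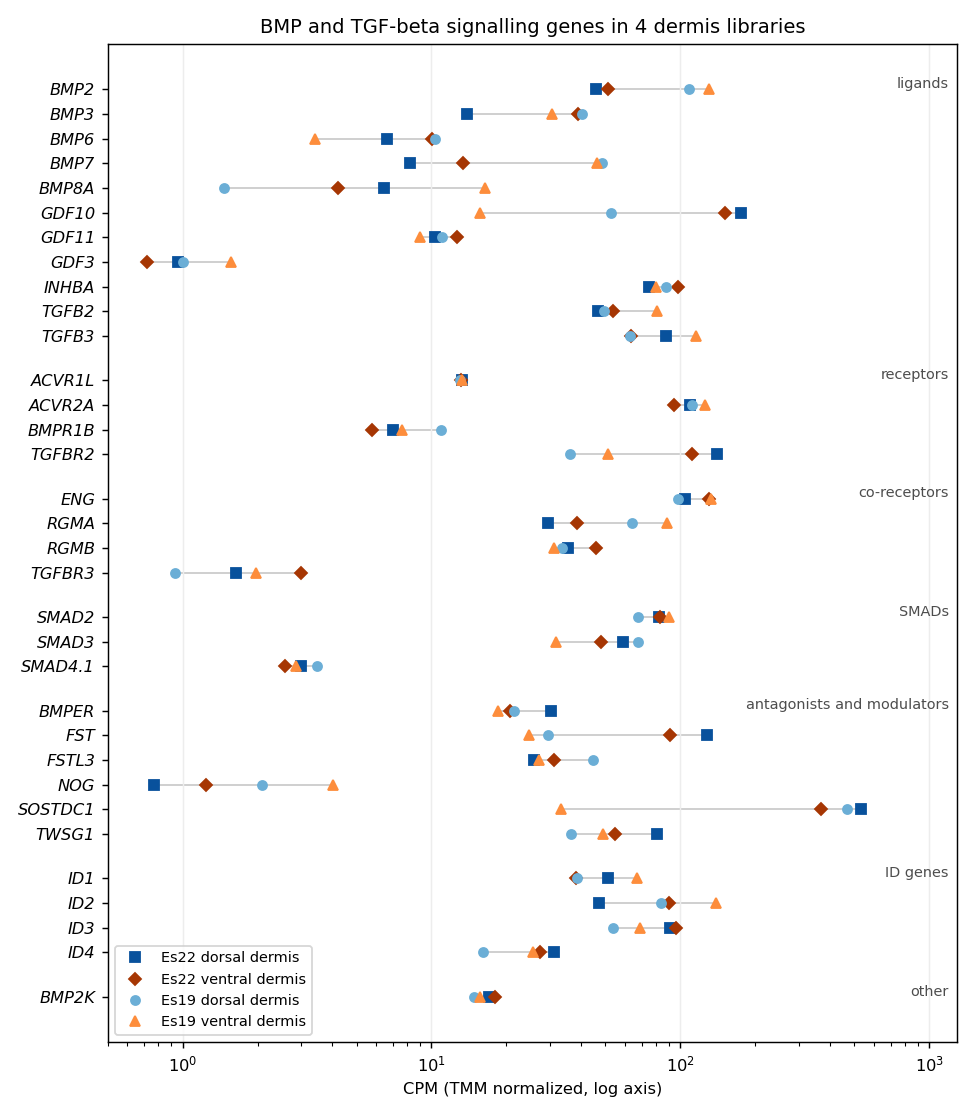
CPM (log axis) of 33 of the 34 members in each library, grouped by role, with 1 symbol for each library and a grey line over each gene's range. GDF10, TGFBR2 and FST have both Es22 symbols to the right of both Es19 symbols, BMP2, BMP7 and RGMA have them to the left, and CPM of separate genes cannot be set side by side.

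BMP2, a ligand of the feather and scale placode, was at 46.0 CPM dorsally and 51.4 CPM ventrally at Es22, against 109 CPM dorsally and 131 CPM ventrally at Es19. Both Es22 libraries lay below both Es19 libraries. It fell at Es22, by 2.36-fold (95% interval 2.13 to 2.62) in dorsal and 2.55-fold (95% interval 2.31 to 2.82) in ventral dermis. Intervals beside ratios were computed by the exact binomial method from recovered reads, and counting error is all they cover. In limma the log2 difference of BMP2, Es22 over Es19, was -1.28 with a standard error of 0.15 (adjusted p = 0.0223).

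BMP7, which can pair with BMP2 in a heterodimer, also fell at Es22. Its level was 8.17 CPM dorsally and 13.4 CPM ventrally at Es22, against 48.3 CPM dorsally and 46.1 CPM ventrally at Es19. The dorsal fall was 5.91-fold (95% interval 4.71 to 7.51) and the ventral fall 3.44-fold (95% interval 2.84 to 4.18), with a log2 difference in limma of -2.07 (standard error 0.24, adjusted p = 0.0223). At Es19 the dorsal and ventral values lay within counting error of each other, with a dorsal over ventral ratio of 1.05 (95% interval 0.939 to 1.17), and at Es22 dorsal dermis was 1.64-fold lower (95% interval 1.24 to 2.19). BMP2 and BMP7 thus stood lower at the stage at which the epidermal sum was higher, and the part of other cell types in the change was not tested.

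GDF10, a ligand related to BMP3, went the other way. It had 175 CPM dorsally and 152 CPM ventrally at Es22, against 52.5 CPM dorsally and 15.7 CPM ventrally at Es19. This is 3.34-fold higher (95% interval 3.06 to 3.65) in dorsal and 9.69-fold higher (95% interval 8.43 to 11.2) in ventral dermis, and limma gave a log2 difference of 2.46 (standard error 0.34, adjusted p = 0.0277). With upper quartile scaling GDF10 had a log2 difference of 2.45 and did not pass in limma (adjusted p = 0.0601, and 1.97e-10 to 0.474 over the alternatives). The larger ventral step starts from the low value of the Es19 ventral library, and at Es22 the regions were close, with dorsal dermis 1.15-fold higher (95% interval 1.08 to 1.24).

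BMP3, which opposes other BMPs in bone, was low in Es22 dorsal dermis alone, with 13.9 CPM there and 38.7 CPM in Es22 ventral dermis, against 40.2 CPM in Es19 dorsal and 30.5 CPM in Es19 ventral dermis. BMP6, a ligand of bone and iron control, was lowest in Es19 ventral dermis, with 6.63 CPM dorsally and 10.01 CPM ventrally at Es22, against 10.3 CPM dorsally and 3.39 CPM ventrally at Es19. Neither ligand moved alike in the regions, and limma gave adjusted p = 0.491 for BMP3 and 0.689 for BMP6 between stages. BMP8A was at 6.44 CPM dorsally and 4.23 CPM ventrally at Es22, against 1.47 CPM dorsally and 16.5 CPM ventrally at Es19. It was the 1 member at least 2-fold apart between stages in opposite directions, which 0.117% of rows were, and these values rest on 19 reads in Es19 dorsal and 243 reads in Es19 ventral dermis.

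The other 5 ligands were less than 2-fold apart in every comparison of 2 libraries on the log2(CPM + 1) scale. INHBA, the subunit of activin A, ranged from 74.8 to 97.5 CPM over the 4 libraries, and GDF11, which acts in axial patterning, from 8.96 to 12.7 CPM. TGFB2 and TGFB3 encode TGF-beta ligands, and both were highest in Es19 ventral dermis. TGFB2 was at 46.5 CPM dorsally and 53.4 CPM ventrally at Es22, against 49.3 CPM dorsally and 80.3 CPM ventrally at Es19. TGFB3 was at 87.7 CPM dorsally and 63.5 CPM ventrally at Es22, against 62.5 CPM dorsally and 116 CPM ventrally at Es19. Its stage difference had opposite signs, with 1.40-fold more at Es22 in dorsal dermis (95% interval 1.27 to 1.54) and 1.83-fold less in ventral dermis (95% interval 1.66 to 2.01). GDF3 had from 7 to 23 reads a library, or 0.722 to 1.56 CPM, and the interval of every ratio between its libraries within a stage or region included 1.

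Among the receptors, TGFBR2, the type II receptor that binds TGF-beta, was the member that rose. It had 140.1 CPM dorsally and 111 CPM ventrally at Es22, against 35.9 CPM dorsally and 51.2 CPM ventrally at Es19. The step was 3.90-fold (95% interval 3.51 to 4.34) in dorsal and 2.17-fold (95% interval 1.98 to 2.39) in ventral dermis, and limma gave a log2 difference of 1.52 (standard error 0.23, adjusted p = 0.0314). The call of TGFBR2 was lost with a pseudocount of 5 (log2 difference 1.44, adjusted p = 0.0527 in limma) and after rescaling by the upper quartile (1.51, adjusted p = 0.0624 in limma), within a range of adjusted p over the alternatives of 2.34e-05 to 0.397. The endothelial sum was also higher at Es22. Of the 14 endothelial markers, 13 in dorsal and 14 in ventral dermis had the higher level at Es22, beside 49.4% and 51.6% of all rows. Their median log2 difference, Es22 over Es19, was 1.67 in dorsal but 0.43 in ventral dermis, where that of TGFBR2 was 1.93 and 1.10. The sums of the other marker lists were also higher at Es22 in both regions, save that of smooth muscle, which was lower in ventral dermis. The part of these cell types in the change of TGFBR2 was not tested.

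The other receptors did not pass in either comparison. ACVR2A, a type II receptor for activins and some BMPs, was at 109 CPM dorsally and 94.7 CPM ventrally at Es22, against 111 CPM dorsally and 126 CPM ventrally at Es19. ACVR1L, placed among the receptors by its symbol, stayed between 13.0 and 13.3 CPM. BMPR1B, a type I BMP receptor, was at 7.01 CPM dorsally and 5.78 CPM ventrally at Es22, against 10.9 CPM dorsally and 7.6 CPM ventrally at Es19. Its stage difference in limma was -0.46 with a standard error of 0.24 (adjusted p = 0.354).

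RGMA, a BMP co-receptor first known as a repulsive axon guidance molecule, fell at Es22. It was at 29.5 CPM dorsally and 38.4 CPM ventrally at Es22, against 63.8 CPM dorsally and 88.4 CPM ventrally at Es19, and limma gave a log2 difference of -1.13 (standard error 0.16, adjusted p = 0.0277). The fall was 2.16-fold (95% interval 1.89 to 2.47) in dorsal and 2.30-fold (95% interval 2.05 to 2.59) in ventral dermis, with both Es22 libraries below both Es19 libraries. With upper quartile scaling RGMA had a log2 difference of -1.15 and did not pass in limma (adjusted p = 0.053, and 0.00224 to 0.451 over the alternatives). With a smaller log2 difference of -1.09 RGMA stood just inside the 2-fold rule, and NOG, at -0.80, was the nearest downward member outside it. With a pseudocount of 5 RGMA dropped out of the rule, and with a pseudocount of 0.1 NOG entered it. RGMB, a co-receptor of the same family, did not share this fall, with 35.5 CPM dorsally and 46.0 CPM ventrally at Es22, against 33.5 CPM dorsally and 31.1 CPM ventrally at Es19.

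The TGF-beta co-receptors ENG (endoglin) and TGFBR3 (betaglycan) were both lower in dorsal dermis at either stage. ENG had 104 CPM dorsally and 129.9 CPM ventrally at Es22, and 98.4 CPM dorsally and 133 CPM ventrally at Es19. TGFBR3 had 1.63 and 2.99 CPM at Es22, and 0.929 and 1.97 CPM at Es19, dorsal before ventral. The region difference of ENG was -0.37 in limma (standard error 0.14, adjusted p = 0.611) and that of TGFBR3 was -0.61 (standard error 0.26, adjusted p = 0.685), so neither passed, and the Es22 interval of TGFBR3 (ratio 0.281 to 1.03) included 1.

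The receptor SMADs of the TGF-beta and activin branch were less than 2-fold apart between stages in either region. SMAD2 was at 82.3 CPM dorsally and 82.5 CPM ventrally at Es22, against 67.7 CPM dorsally and 90.0 CPM ventrally at Es19. SMAD3 was at 58.9 CPM dorsally and 48.1 CPM ventrally at Es22, against 67.9 CPM dorsally and 31.7 CPM ventrally at Es19. Of these values only the Es19 ventral one of SMAD3 stood clearly apart, 2.14-fold below Es19 dorsal dermis (95% interval of dorsal over ventral 1.91 to 2.4). The row named SMAD4.1 stayed between 2.58 and 3.48 CPM, on 25 to 45 reads a library.

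Follistatin (FST), which binds activins and with less affinity BMPs, had the smallest adjusted p of the members between stages in limma and in edgeR, while in DESeq2 that of GDF10 was smaller (1.97e-10, against 3.47e-10 for FST). It was at 128 CPM dorsally and 90.8 CPM ventrally at Es22, against 29.4 CPM dorsally and 24.8 CPM ventrally at Es19. The rise was 4.37-fold (95% interval 3.89 to 4.91) in dorsal and 3.67-fold (95% interval 3.24 to 4.15) in ventral dermis, and limma gave a log2 difference of 1.96 (standard error 0.16, adjusted p = 0.0147). FSTL3, a follistatin-like protein that also binds activins, did not follow it, with 25.8 CPM dorsally and 31.1 CPM ventrally at Es22, against 44.7 CPM dorsally and 27.1 CPM ventrally at Es19.

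Noggin (NOG), the antagonist that encloses BMP dimers, was scarce and stood at 0.769 CPM dorsally and 1.24 CPM ventrally at Es22, against 2.09 CPM dorsally and 4.0 CPM ventrally at Es19. These values came from 8, 12, 27 and 59 reads. Both Es22 libraries lay below both Es19 libraries, but the stage difference of -0.98 (standard error 0.27) did not pass in limma (adjusted p = 0.115). The dorsal over ventral ratio of NOG at Es19 was 0.522 (95% interval 0.318 to 0.836), and at Es22 its interval of 0.220 to 1.65 included 1.

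SOSTDC1, an antagonist of BMPs that also modulates WNT signalling and shapes teeth, hair and other skin organs, had the widest range of the members. It was at 534 CPM dorsally and 367 CPM ventrally at Es22, against 466 CPM dorsally and 33.1 CPM ventrally at Es19. The Es19 ventral library alone was low. At Es19 SOSTDC1 was 14.1-fold higher in dorsal than in ventral dermis (95% interval 12.8 to 15.5), whereas at Es22 the same ratio was 1.45 (95% interval 1.39 to 1.52). From the other side, ventral dermis had 11.1-fold more at Es22 than at Es19 (95% interval 10.1 to 12.2) and dorsal dermis 1.15-fold more (95% interval 1.11 to 1.19). In limma neither the region difference of 2.16 (standard error 0.68, adjusted p = 0.469) nor the stage difference of 1.81 (standard error 0.68, adjusted p = 0.214) passed. Beside this, the Es19 epidermal sum was 42.3 CPM dorsally and 52.5 CPM ventrally. The Es19 fibroblast sum, most of it type I collagen, was 186098 CPM dorsally and 88474 CPM ventrally, with 6 of its 8 genes higher dorsally and 2 lower. The part of these cell types in the difference was not tested.

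**Figure D3:**
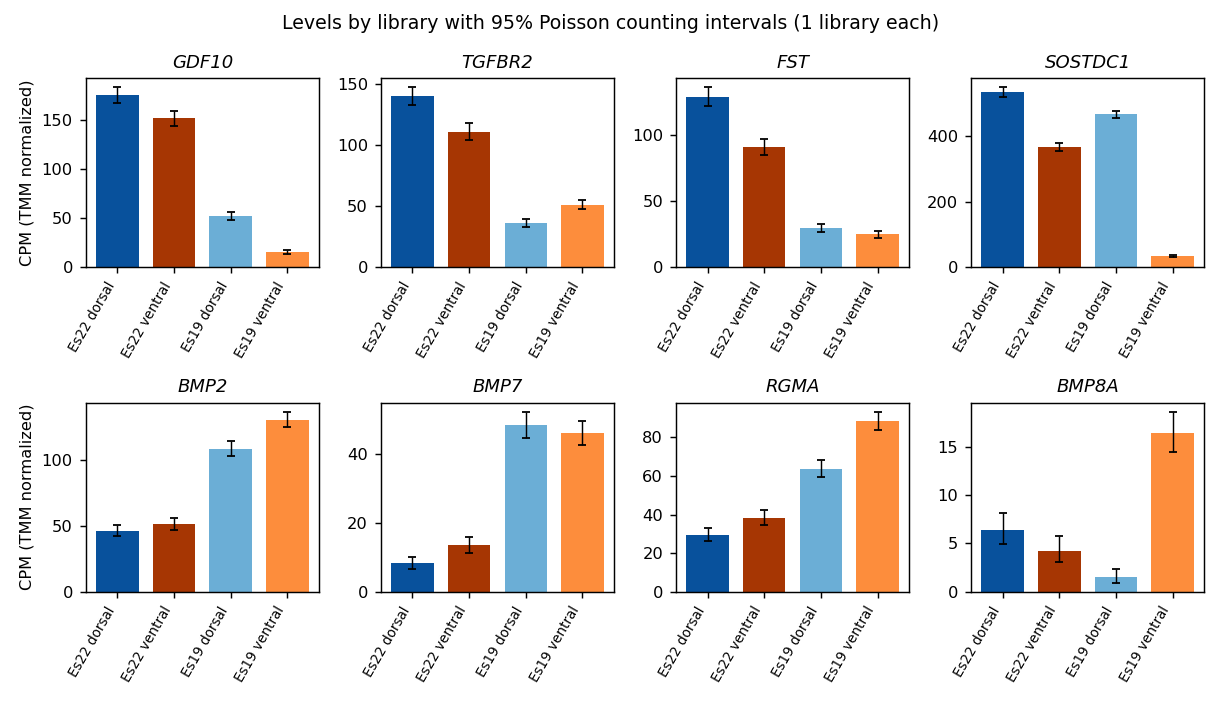
CPM (linear axis from 0) of the 6 members that passed in the stage comparison and of SOSTDC1 and BMP8A, with 1 bar for each library and exact 95% Poisson intervals that cover counting error only. SOSTDC1 had 33.1 CPM in Es19 ventral dermis and at least 367 CPM in the other libraries, and BMP8A had its highest level, 16.5 CPM, in that same library.

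The other extracellular modulators had narrower ranges than SOSTDC1. TWSG1 (twisted gastrulation), which binds BMPs together with chordin, was at 81.0 CPM dorsally and 54.8 CPM ventrally at Es22, against 36.3 CPM dorsally and 48.7 CPM ventrally at Es19, so that the stage ratio was 2.23 in dorsal (95% interval 1.99 to 2.50) and 1.12 in ventral dermis (95% interval 1.0 to 1.26). BMPER, a chordin-like BMP binder, ranged from 18.5 to 30.4 CPM.

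The ID genes encode helix-loop-helix proteins that hold back differentiation factors and respond to BMP. They did not move together, and 0 of the 4 passed between stages in limma. ID2 was at 47.0 CPM dorsally and 90.2 CPM ventrally at Es22, against 83.7 CPM dorsally and 139 CPM ventrally at Es19. Its stage difference was -0.72 in limma (standard error 0.15, adjusted p = 0.0694), and it was the 1 further member that edgeR's quasi-likelihood test called (adjusted p = 0.0461). ID3 was higher at Es22 in both regions, with 90.7 CPM dorsally and 96.4 CPM ventrally at Es22, against 53.6 CPM dorsally and 69.2 CPM ventrally at Es19, and did not pass in limma (log2 difference 0.61, standard error 0.16, adjusted p = 0.103). ID4 was at 31.2 CPM dorsally and 27.2 CPM ventrally at Es22, against 16.1 CPM dorsally and 25.6 CPM ventrally at Es19. ID1 had opposite signs, with 51.4 CPM dorsally and 38.2 CPM ventrally at Es22, against 38.3 CPM dorsally and 67.2 CPM ventrally at Es19. The kinase BMP2K met the symbol rule through its name, which refers to its induction by BMP2 in mouse bone cells, and stayed between 14.8 and 18.1 CPM.

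**Figure D4:**
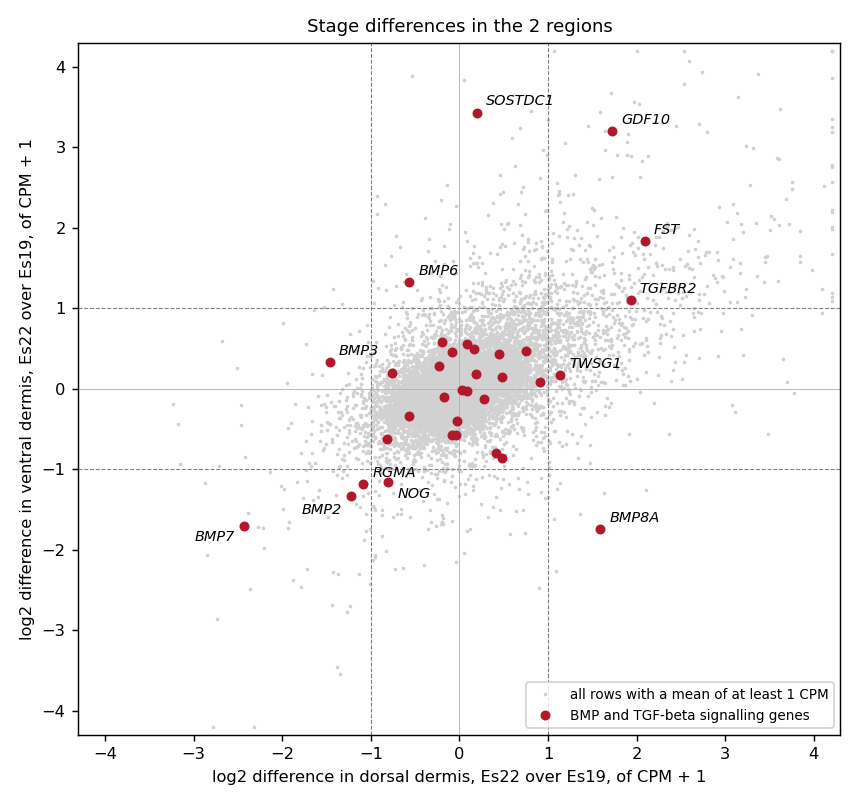
Log2 difference of CPM + 1, Es22 over Es19, in dorsal (x axis) and ventral dermis (y axis) for all 10236 rows compared (grey, drawn at the edge where beyond it) and for the members (red), with dashed lines at the 2-fold rule. GDF10, FST and TGFBR2 lie in the upper right corner, BMP7, BMP2 and RGMA in the lower left, and BMP8A alone lies more than 2-fold out in opposite directions.

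As a list the members had no common direction between stages. Their median log2 difference was 0.05 in dorsal and 0.12 in ventral dermis, beside -0.01 and 0.01 over all rows, and 18 of 34 were higher at Es22 in either region. The members had quartiles of -0.48 and 0.47 in dorsal dermis, beside -0.30 and 0.37 over all rows, and of -0.58 and 0.47 in ventral dermis, beside -0.22 and 0.30. Taken by region, 5 members were at least 2-fold higher and 4 lower at Es22 in dorsal dermis, beside 8.15% and 2.4% of all rows. In ventral dermis 5 were higher and 5 lower, beside 5.74% and 1.74%. Irrespective of size, 12 members had a higher level at Es22 in both regions and 10 a lower one, shares of 35.3% and 29.4% beside 34.3% and 33.3% of all rows.

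Between regions 0 of the 34 members passed the 2-fold rule, which asks for that step with one sign at Es22 and at Es19, beside 0.596% of all rows higher and 0.469% lower in dorsal dermis. In limma 0 members passed, beside 0.137% of rows upward and 0.0977% downward, 0 passed in edgeR, beside 0.332% and 0.215%, and 0 in DESeq2, beside 0.596% and 0.42%. At an unadjusted p under 0.05 stood 7 members in limma (7.55% of all rows), 8 in edgeR (8.24%) and 3 in DESeq2 (4.61%). Irrespective of size, 8 members were above and 10 below the ventral level at both stages, beside 24.5% and 25.3% of all rows. The smallest adjusted p was that of ID2, which was lower in dorsal dermis at both stages, by 1.92-fold at Es22 (95% interval 1.72 to 2.15) and 1.66-fold at Es19 (95% interval 1.54 to 1.79). Its log2 difference in limma was -0.83 (standard error 0.15, adjusted p = 0.178), with adjusted p values of 0.0959 in edgeR and 0.131 in DESeq2. RGMA, ENG, SMAD3, GDF10 and SOSTDC1 were also at an unadjusted p under 0.05 in limma.

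At Es19 alone, 4 members exceeded their ventral level 2-fold or more in dorsal dermis and 1 fell short of it as far, shares of 34 to be read beside 2.57% and 2.84% of all rows. These were SOSTDC1, GDF10, BMP6 and SMAD3, and in the other direction BMP8A. GDF10 was 3.35-fold higher in dorsal dermis (95% interval 2.88 to 3.90) and BMP6 3.03-fold higher (95% interval 2.18 to 4.29). BMP8A was 11.2-fold lower in dorsal dermis at Es19 (95% interval 7.03 to 18.9) and 1.52-fold higher at Es22 (95% interval 1.02 to 2.30). At Es22 alone 0 members were higher by this rule and 1 was lower, beside 2.69% and 1.94% of all rows. That member was BMP3, which was 2.78-fold lower in dorsal dermis (95% interval 2.29 to 3.39).

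For 2 members the region difference at Es22 and that at Es19 were more than 4-fold apart, a measure chosen after their values were seen. The difference of log2 differences, Es22 minus Es19, was -3.23 for SOSTDC1 and 3.33 for BMP8A, and 0.449% of all rows lay at -2 or below and 0.742% at 2 or above. With 1 library for each region and stage this contrast leaves no residual degree of freedom and was not tested. The Es19 ventral library held the lowest level of SOSTDC1, GDF10, BMP6 and SMAD3 and the highest level of BMP8A. The median region difference of the members was -0.13 at Es19 and 0.01 at Es22, beside 0.00 and -0.01 over all rows.

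**Figure D5:**
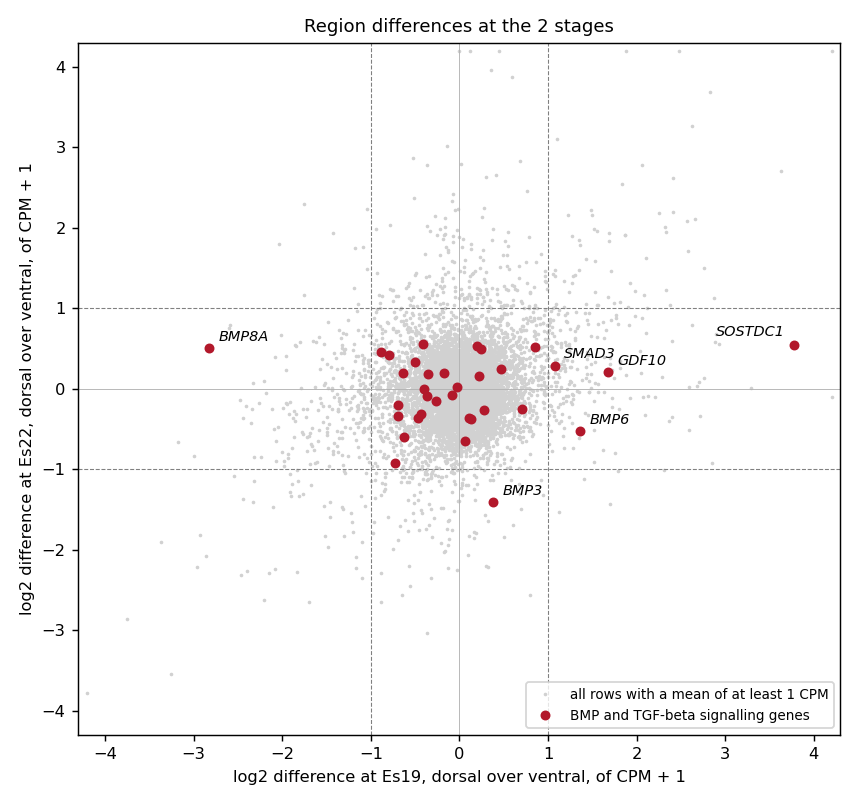
Log2 difference of CPM + 1, dorsal over ventral, at Es19 (x axis) and at Es22 (y axis) for all 10236 rows compared (grey, drawn at the edge where beyond it) and for the members (red), with dashed lines at the 2-fold rule. No member lies beyond the lines at both stages, and SOSTDC1 (3.77) and BMP8A (-2.82) lie far out at Es19 and near the middle at Es22.

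Genes that work around this pathway were listed apart from the members. Of 81 listed genes 36 had a row with a mean of at least 1 CPM (37 rows, since LTBP2 had 2). Between stages limma called 5 of the 37 rows higher and 1 lower at Es22, beside 2.66% and 0.469% of all rows. Between regions it called 0, beside 0.137% and 0.0977%. The 2-fold rule called 4 higher and 0 lower at Es22, beside 3.26% and 0.537% of all rows. In dorsal over ventral dermis it called 1 higher and 1 lower, beside 0.596% and 0.469%. Of the latency and activation list, FBN1 (fibrillin-1), whose microfibrils hold latent TGF-beta and BMPs, had 2242 CPM dorsally and 1625 CPM ventrally at Es22, against 773 CPM dorsally and 664 CPM ventrally at Es19 (log2 difference 1.41, adjusted p = 0.0277 in limma). ITGB6, an epithelial integrin subunit that activates latent TGF-beta, was at 10.8 and 3.71 CPM at Es22, against 1.39 and 0.407 CPM at Es19, dorsal before ventral. The Es19 values rest on 18 reads in dorsal and 6 reads in ventral dermis. ITGB6 rose in limma (log2 difference 2.02, adjusted p = 0.0277). The epidermal sum was also higher at Es22, and its part in this change was not tested. The other 11 rows of that list, with BMP1, FURIN and the LTBP genes among them, did not pass in limma. BMP1 (adjusted p = 0.0547 in limma) passed as a rise in edgeR (adjusted p = 0.0369) and DESeq2 (adjusted p = 0.00545).

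Of the response genes, limma called JUNB and SNAI2 as rises and DLX5, a homeobox gene that BMP can induce, as a fall at Es22. DLX5 was at 24.1 CPM dorsally and 13.0 CPM ventrally at Es22, against 46.2 CPM dorsally and 33.9 CPM ventrally at Es19 (log2 difference -1.11, adjusted p = 0.0481 in limma). SNAI2, a zinc finger transcriptional repressor, had a log2 difference of 0.83 (adjusted p = 0.0442 in limma). The AP-1 subunit JUNB had one of 2.43 (adjusted p = 0.031 in limma). CTGF rose in both regions, 1.99-fold in dorsal and 4.77-fold in ventral dermis. It passed in edgeR (adjusted p = 0.0208) and DESeq2 (adjusted p = 0.000125) but not in limma (adjusted p = 0.0547). MSX1 and MSX2 moved in opposite directions in the regions. At Es22 they were 2.33-fold and 6.72-fold higher in dorsal and 1.48-fold and 1.58-fold lower in ventral dermis. Neither passed in limma (adjusted p = 0.749 and 0.490). The proteoglycan biglycan (BGN) was the 1 gene of the secreted and membrane modulator list that limma called, as a rise (log2 difference 1.02, adjusted p = 0.030). PMEPA1 of that list passed as a fall in edgeR (adjusted p = 0.0355) and DESeq2 (adjusted p = 0.00734) but not in limma (adjusted p = 0.0709). Of the nuclear cofactors 0 of 5 passed. Myostatin (MSTN), a family ligand that restrains muscle growth, was higher in ventral dermis at both stages by the 2-fold rule. It had 2.69 CPM dorsally and 13.4 CPM ventrally at Es22, and 0.542 CPM dorsally and 3.32 CPM ventrally at Es19. The Es19 dorsal value rests on 7 reads. The 2-fold rule also called MSTN higher at Es22, by 4.97-fold in dorsal and 4.03-fold in ventral dermis. Between stages it passed in edgeR (adjusted p = 0.0215) and DESeq2 (adjusted p = 0.0327) but not in limma (adjusted p = 0.051). Between regions MSTN did not pass in limma (adjusted p = 0.141) or edgeR (adjusted p = 0.053) but passed in DESeq2 (adjusted p = 0.0317). The skeletal muscle sum was also higher in ventral dermis, and its part in this difference was not tested. DLX6 was the 1 listed gene that the 2-fold rule called higher in dorsal dermis, at 3.17 against 1.03 CPM at Es22 and 6.50 against 1.56 CPM at Es19, dorsal before ventral. The ventral values rest on 10 reads at Es22 and 23 reads at Es19. Between regions DLX6 did not pass in limma (adjusted p = 0.255), edgeR (adjusted p = 0.143) or DESeq2 (adjusted p = 0.635).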

How the data were processed

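The authors deposited 1 table of CPM values with TMM normalization, a signal in which reads are divided by the library size times a factor (0.787 and 0.904 at Es22, 1.10 and 1.27 at Es19, dorsal before ventral). The methods of the paper name STAR for the alignment of single reads. HTSeq, edgeR, TopHat2 (2.1.0) and Partek (3) are listed in the processing notes of the submitters. Rows carry transcript identifiers, and no source used here says which annotation was used or how reads were shared among transcripts of a gene. Whole reads were recovered by division by the value of 1 read. In each library 99.8% to 99.95% of values lay within 0.05 of a whole number, and a count of 0 allows up to 3 reads, or 0.204 to 0.310 CPM.

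Rows averaging 1 CPM or more were compared on log2(CPM + 1), where differences of low genes are understated. A gene was counted when at least 2-fold apart in both comparisons that share no library. limma (version 3.58.1, with an intensity trend) was fitted over all 10236 rows with region and stage as terms, Benjamini-Hochberg adjustment and a threshold of 0.05. edgeR (version 4.0.16, quasi-likelihood) and DESeq2 (version 1.42.0) were run on the recovered reads as alternatives. edgeR called 56 rows between regions and 565 between stages, and limma 24 and 320. The limma fit and the 2-fold rule were run on simulated reads with known changes. The spread of those reads was preset and not estimated from these data, and no result here rests on the run. Each change was the same in both regions or at both stages. The run thus does not cover genes such as SOSTDC1, whose region difference depends on stage. R 4.3.3, Python 3.11.15, pandas 2.3.3 and scipy 1.17.1 were used.

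The members, gene lists, roles and tests were chosen with earlier results of these data known. Values are printed for members called in a comparison, members at least 2-fold apart in opposite directions, those the paper names, and the BMP ligands, receptors, receptor SMADs and ID genes; others named were chosen after their values were seen. Of the marker lists, 7 of 14 Schwann cell and melanocyte genes had a row with a mean of at least 1 CPM. The same held for 6 of 12 genes of cartilage and bone, 7 of 10 of macrophages and 4 of 10 of smooth muscle. Of the members, 1 is counted but its values are not reported here. No sequences are shown.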

Additional observations from a re-analysis of the deposited data

Results flagged for a closer look

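BMP8A had opposite differences between stages in the regions. Its log2 difference, Es22 over Es19, was 1.59 in dorsal and -1.74 in ventral dermis, or 4.38-fold higher (95% interval 2.60 to 7.72) and 3.90-fold lower (95% interval 2.79 to 5.57). In limma, whose stage term averages the regions, BMP8A did not pass (log2 difference -0.08, adjusted p = 0.966). The gap between the regions was not tested, since each region and stage had 1 library.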

How the results depend on the processing

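No paired analysis was possible because the labels give each region and stage 1 library and no replicate numbers. Between regions each alternative gave 0 members, which says nothing of stability where no more could be called: limma called 0 of all rows without the stage term, with upper quartile scaling and with each library left out, and a 4-fold rule or a higher filter cannot add a member. Between stages the 2-fold rule took the same 6 members under each other filter and scaling run, 7 with a pseudocount of 0.1 (NOG added), 5 with a pseudocount of 5 (RGMA lost) and 0 with a 4-fold rule, where 0.557% of all rows were called. limma called 0 members with region left out as a term (9 at an unadjusted p under 0.05) and 3 (BMP2, BMP7 and FST) after rescaling by the upper quartile. With each library left out in turn it called from 0 to 2 members, of 0 rows in all without either Es22 library, 25 without Es19 dorsal and 75 without Es19 ventral dermis. There stage alone was a term, and the 1 library left in a group is assumed to vary like the others. No called member reversed, and with a library left out none could, since both Es22 levels lay on one side of both Es19 levels. Median differences moved by less than 0.1 on the log2 scale. Depth limits the members with under 60 reads in each library, NOG, GDF3, TGFBR3 and SMAD4.1 among them. Over all rows the 2-fold rule called 109 between regions, 205 with a pseudocount of 0.1, 44 with 5 and 22 as a 4-fold rule, and between stages 389, 599, 185 and 57. Over all rows limma called 320 between stages, 486 with a pseudocount of 0.1, 144 with 5, 89 with upper quartile scaling and 0 without the region term, beside 565 in edgeR and 492 in DESeq2. Between regions these were 24, 40, 8, 0 and 0, beside 56 and 104.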
